A study of Mus musculus with 6 samples.

Results

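Aminoacyl-tRNA synthetases join each amino acid to its transfer RNA, the step at which the genetic code is read. The 36 synthetase genes described here were taken by gene symbol from the 35727 genes in the deposited table. They comprise 20 genes of cytosolic enzymes and 16 genes of mitochondrial enzymes, whose symbols end in 2. All 36 were found and all 36 passed the filter on low counts. Expression was measured by RNA sequencing of 6 poly(A) libraries from mouse undifferentiated pleomorphic sarcoma cells, which were sorted by red fluorescence from tumours grown in mice. The 3 shPostn libraries (titled Postn-KO) came from cells carrying a virally delivered hairpin that targets Postn, which encodes periostin, a protein secreted into the matrix, and the 3 shSCR libraries (titled Postn-WT) from cells with a scrambled hairpin. Both groups descend from a single line. It began as mesenchymal stem cells of female C57/Bl6 p53KO mice, received Ccne1 (cyclin E1) and red fluorescent protein by retrovirus, and was passaged as subcutaneous grafts in female wild-type recipients, so that p53 loss and Ccne1 overexpression are common to shPostn and shSCR cells. The labels name 1 hairpin per group and leave it unsaid whether each library is a tumour of its own, so each p measures only the spread between these libraries, which can be technical, and an effect of reduced periostin and a difference between the 2 derived lines cannot be told apart.

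Each synthetase recognises 1 amino acid, apart from Eprs, whose single protein chain charges both glutamate and proline tRNAs. Most mammalian amino acids have a cytosolic and a mitochondrial enzyme from separate genes, while Kars (lysine) and Gars (glycine) each serve both compartments from 1 gene. Cytosolic phenylalanine is charged by a complex of the Farsa and Farsb subunits. When amino acids run short, uncharged tRNA activates the kinase GCN2 (Eif2ak4), which raises translation of the transcription factor ATF4, and ATF4 induces genes of amino acid synthesis and import together with many cytosolic synthetases.

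The libraries held between 19603269 and 19931734 counts in shPostn and between 19847860 and 20376554 counts in shSCR. Postn, the target of the hairpin, measured 217, 471 and 639 CPM in the shPostn libraries, against 4097, 3602 and 3225 CPM in the shSCR libraries (CPM is the count scaled by the TMM-normalised library size; log2 fold change −3.04, SE 0.41, edgeR adjusted p = 0.0125, and up to 0.0542 without shSCR replicate 1 or 2). The 6 mesenchymal markers summed to between 21066 and 35928 CPM in shPostn and between 25628 and 28505.5 CPM in shSCR, whereas 6 epithelial markers summed to at most 2.60 CPM in any library, with Krt5 and Krt18 at 0 throughout. Among the mesenchymal markers Thy1 was low, at no more than 3.89 CPM in any library. shPostn replicate 3 stood apart in leukocyte transcripts: the 6 pan-leukocyte markers summed to 33.4, 16.2 and 172 CPM in the shPostn libraries and to 41.6, 33.5 and 23.2 CPM in the shSCR libraries. The 8 macrophage markers summed to 89.2, 39.5 and 884.5 CPM in shPostn, against 178, 126 and 54.3 CPM in shSCR. The part of these cells in the synthetase results was not tested; without that library the same 11 cytosolic genes were called lower as with it.

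Cytosolic enzymes were expressed far above mitochondrial ones in both groups. Per kilobase of exon, the median level was 28.4 CPM in shPostn and 37.5 CPM in shSCR over the 20 cytosolic genes, and 3.10 CPM in shPostn and 3.68 CPM in shSCR over the 16 mitochondrial genes. Gars had the highest level per kilobase in both groups, 98.7 CPM in shPostn and 142.5 CPM in shSCR, followed by Nars (asparagine), at 77.4 CPM in shPostn and 131 CPM in shSCR. The lowest cytosolic level per kilobase in shSCR was that of Farsa, 15.3 CPM. Lars2 (mitochondrial leucine), at 19.1 ± 4.79 CPM per kilobase in shSCR (SD, n = 3), was the one mitochondrial gene above that value. The lowest level per kilobase was that of Mars2 (mitochondrial methionine), 1.36 CPM in shPostn and 1.49 CPM in shSCR. In the ordering by shSCR level, neighbours such as Tars and Kars (46.1 and 45.7 CPM per kilobase) lay within their SD of each other.

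**Figure D1:**
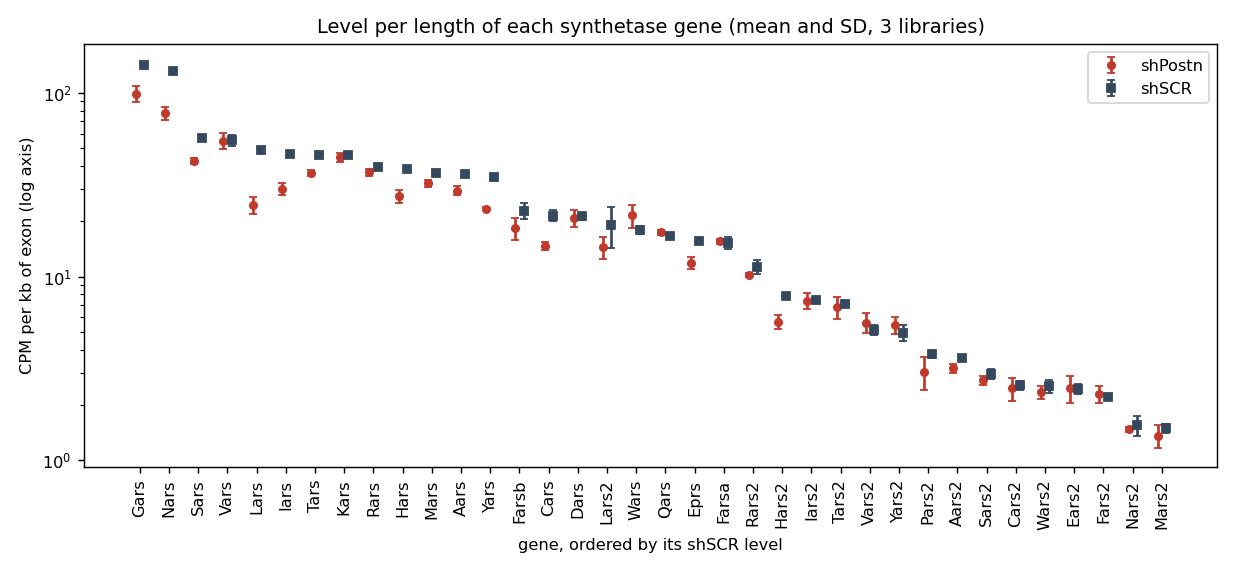
Level of each of the 36 synthetase genes in CPM per kilobase of exon (log axis), as the mean with SD of 3 shPostn libraries (circles) and 3 shSCR libraries (squares), ordered by the shSCR level. Cytosolic genes fill the left of the plot, from 142.5 CPM per kilobase for Gars in shSCR down, and mitochondrial genes other than Lars2 lie at its right.

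Transcripts of a large share of the cytosolic synthetases were lower in shPostn than in shSCR libraries, while those of the mitochondrial synthetases were mostly not called. Of 20 cytosolic genes 11 fell in shPostn, 0 rose and 9 did not pass the test (edgeR quasi-likelihood test, adjusted p under 0.05 over all 12819 genes tested). That is 55.0% of the cytosolic genes, against 5.53% of all genes tested called lower and 4.61% called higher. The median log2 fold change (shPostn minus shSCR, as throughout) was −0.32 over the cytosolic genes and 0.01 over all genes. Of 16 mitochondrial genes 1 fell, 0 rose and 15 did not pass, a share of 6.25% that is near the background, with a median log2 fold change of −0.09. That median was −0.15 without shPostn replicate 2, −0.03 without shPostn replicate 3, −0.06 without shSCR replicate 2 and −0.03 with chromosome medians taken out. In bulk RNA a change in the mix of cells and a change in RNA per cell cannot be told apart.

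**Figure D2:**
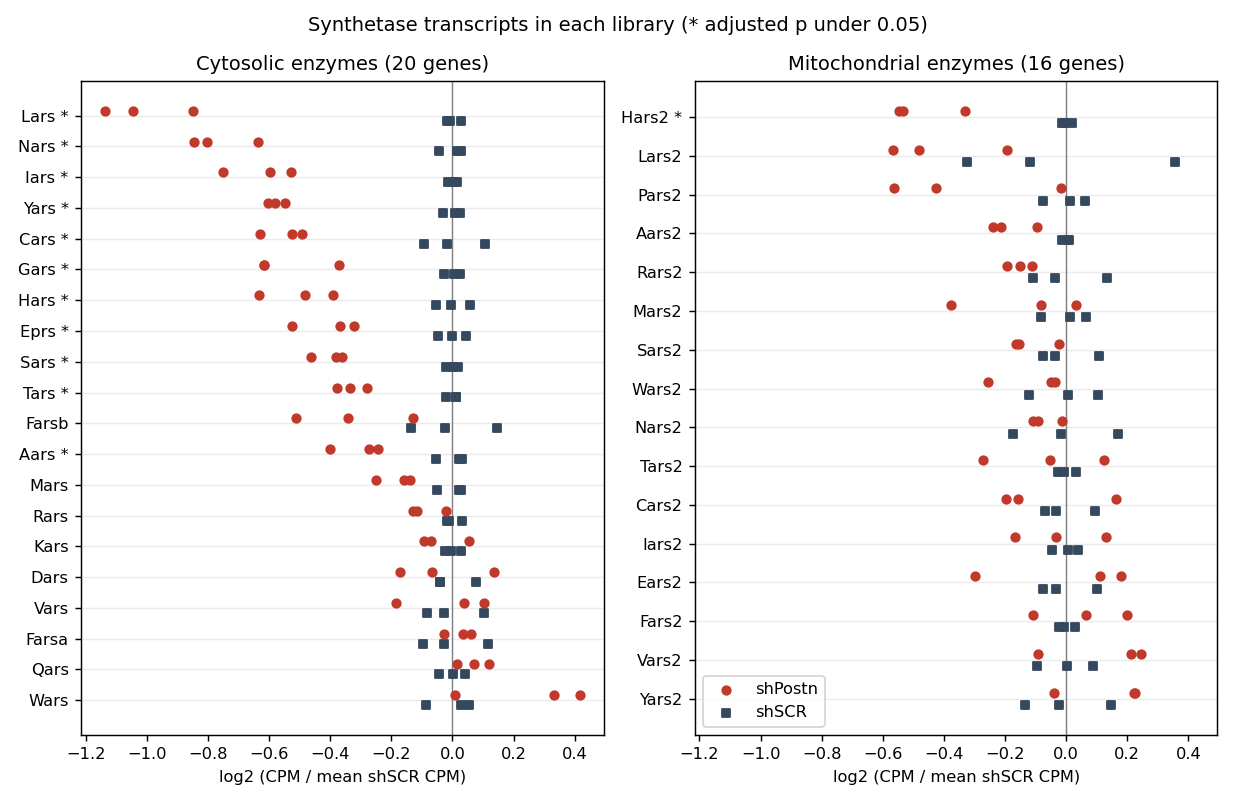
Level of each synthetase gene in each library, as log2 of its CPM over the mean shSCR CPM of that gene, for shPostn (circles) and shSCR (squares); cytosolic enzymes are on the left, mitochondrial ones on the right, and stars mark genes that passed the test. For 13 cytosolic genes all 3 shPostn libraries lie below all 3 shSCR libraries, as they do for 3 mitochondrial genes.

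Summed over the 20 cytosolic genes, the level was 3512, 3210 and 3168 CPM in the shPostn libraries, against 4311, 4383 and 4234 CPM in the shSCR libraries. The highest shPostn library thus lay below the lowest shSCR library. The 16 mitochondrial genes summed to 526, 499 and 443 CPM in shPostn and to 538, 628 and 516 CPM in shSCR, and these ranges overlap. For single genes, the libraries did not overlap and shPostn was lower at 13 of 20 cytosolic genes and at 3 of 16 mitochondrial genes (Hars2, Aars2 and Rars2), against 17.0% of all genes tested. No synthetase gene had all shPostn libraries above all shSCR libraries.

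Away from chromosome 18, the enzymes of isoleucine, tyrosine, cysteine and glycine changed the most among those that fell. Iars, which charges isoleucine (ENSMUSG00000037851; GRCm38 chromosome 13, 49682100 to 49734267, plus strand), measured 169, 161 and 145 CPM in shPostn, against 241, 246 and 244 CPM in shSCR. Its shSCR libraries were nearly level with each other, and every shPostn library lay well under them (log2 fold change −0.62, SE 0.07, adjusted p = 0.00536). Yars, which charges tyrosine (ENSMUSG00000028811; chromosome 4, 129189760 to 129219607, plus strand), measured 142, 139 and 137 CPM in shPostn, against 204, 209 and 212 CPM in shSCR. This was the smallest SE of any synthetase, and the shPostn mean was 67.0% of the shSCR mean (log2 fold change −0.58, SE 0.05, adjusted p = 0.00312). Cars, which charges cysteine (ENSMUSG00000010755; chromosome 7, 143557230 to 143600090, minus strand), measured 100.5, 91.4 and 98.2 CPM in shPostn, against 152, 132 and 139.6 CPM in shSCR (log2 fold change −0.55, SE 0.07, adjusted p = 0.00735). Gars, the glycine enzyme of both compartments (ENSMUSG00000029777; chromosome 6, 55038007 to 55079500, plus strand), measured 344, 289.98 and 290.1 CPM in shPostn, against 446, 452 and 436 CPM in shSCR (log2 fold change −0.53, SE 0.08, adjusted p = 0.0119).

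The enzymes of glutamate, proline, serine, threonine and alanine changed less. Eprs, the fused glutamate and proline enzyme, measured 228, 198 and 220.3 CPM in shPostn, against 276, 294 and 284 CPM in shSCR (log2 fold change −0.40, SE 0.07, adjusted p = 0.0178). Sars, which charges serine and also starts the path to selenocysteine, measured 226, 211 and 224 CPM in shPostn, against 295, 287 and 291 CPM in shSCR (log2 fold change −0.40, SE 0.06, adjusted p = 0.00919). In both genes the gap between the groups exceeded the range within either group. Tars, the threonine enzyme, measured 224, 216 and 209 CPM in shPostn, against 274, 274 and 268 CPM in shSCR (log2 fold change −0.33, SE 0.06, adjusted p = 0.0160). Aars, the alanine enzyme, measured 285, 255 and 279 CPM in shPostn, against 342, 344 and 325 CPM in shSCR (log2 fold change −0.30, SE 0.07, adjusted p = 0.0351). Of the enzymes that fell, Aars had the smallest change, to 81.0% of its shSCR mean. Exons of Aars and Exosc6, an exosome gene, share 1326 bases on the same strand, and Exosc6 is listed at 0 in every library, so the value of Aars may hold reads of both.

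Promoter sequence was read for these genes because ATF4 acts with C/EBP proteins at a composite element, the C/EBP-ATF response element, whose core is written TGATGCAA in its strict form and TGATGNAA in a looser one. RefSeq promoter windows on GRCm38.p6 (300 bases, 250 before and 50 after each start) were held for 27 of the 36 synthetase genes; Cars, Hars, Hars2, Lars, Nars, Pars2, Rars, Vars and Wars had none there. Searched on both strands, the looser core was present in 3.97% and the strict core, which is a case of the looser one, in 0.895% of all 32851 windows. The looser core was found in the windows of 5 of the 7 cytosolic genes that fell and have one (Aars, Gars, Iars, Tars and Yars), in those of 0 of the 6 cytosolic genes that did not pass, and in those of 0 of the 14 mitochondrial genes. The strict core was in 4 of these 5, all but Gars. The 5 sequences are shown because they hold the core, which the windows of uncalled cytosolic genes and of mitochondrial genes lacked; each runs 5′ to 3′ on the gene's strand, from 130 bases before the RefSeq start to 20 bases after it, with matches to the looser core on either strand in capitals.
Yars (chr4:129189773-129189922, plus strand): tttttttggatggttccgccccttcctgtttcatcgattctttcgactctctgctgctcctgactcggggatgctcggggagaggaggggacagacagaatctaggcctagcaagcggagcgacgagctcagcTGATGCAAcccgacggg
Iars (chr13:49682000-49682149, plus strand): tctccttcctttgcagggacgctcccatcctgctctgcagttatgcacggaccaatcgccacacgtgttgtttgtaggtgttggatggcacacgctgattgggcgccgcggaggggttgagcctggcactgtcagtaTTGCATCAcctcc
Gars (chr6:55037871-55038020, plus strand): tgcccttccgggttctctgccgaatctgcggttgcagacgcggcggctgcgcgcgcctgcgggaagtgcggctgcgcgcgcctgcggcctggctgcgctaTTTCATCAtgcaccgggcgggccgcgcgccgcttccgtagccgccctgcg
Tars (chr15:11399639-11399788, minus strand): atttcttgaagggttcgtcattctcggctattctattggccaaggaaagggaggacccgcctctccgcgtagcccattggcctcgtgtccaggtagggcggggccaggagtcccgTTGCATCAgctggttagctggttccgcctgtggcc
Aars (chr8:111033712-111033861, plus strand): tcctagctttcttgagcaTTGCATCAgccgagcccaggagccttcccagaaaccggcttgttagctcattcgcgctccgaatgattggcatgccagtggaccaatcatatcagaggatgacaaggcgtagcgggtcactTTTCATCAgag

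A capital TTGCATCA or TTTCATCA is the core read on the opposite strand, and the capital TGATGCAA of Yars is the core on the gene's own strand. The match begins 112 bases before the start in Aars, 30 before it in Gars and 15 before it in Tars, while it begins at base 8 after the start in Iars and at base 4 in Yars. Aars holds another looser match at base 10 after its start. Sars and Eprs, which also fell, had no match in their windows. A match is a description of the letters, and binding was not measured.

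Cytosolic synthetases known from mouse and human cells as ATF4 targets accounted for most of the calls. Of 13 such genes (Aars, Cars, Eprs, Gars, Iars, Lars, Mars, Nars, Sars, Tars, Vars, Wars and Yars) 10 fell and 0 rose, with a median log2 fold change of −0.40. Of the other 7 cytosolic genes (Dars, Farsa, Farsb, Hars, Kars, Qars and Rars) 1 fell, namely Hars, with a median of −0.04. These shares are 76.9% and 14.3%, against 5.53% of all genes tested called lower. Lars, Nars and Hars lie on chromosome 18, where 48.4% of genes were called lower. With chromosome medians taken out, 8 of the 13 and 0 of the 7 were called lower, against 2.81% of all genes tested. The lists were chosen with earlier results of these data known, and the difference between them was not tested. By structural class, 4 of 9 class I enzymes and 6 of 10 class II enzymes fell. With chromosome medians taken out, 4 of the 9 and 3 of the 10 were called lower. The difference between the classes was not tested. Eprs, which joins an enzyme of each class, was counted in neither.

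Of the multi-synthetase complex, 3 enzymes and 0 scaffold genes passed the test. This cytosolic complex holds the enzymes Eprs, Iars, Lars, Mars, Qars, Rars, Kars and Dars on 3 scaffold proteins. Of the 8 enzymes Eprs, Iars and Lars fell (37.5%, against 5.53% of all genes tested called lower), while the other 5 did not pass. The log2 fold change was below 0 for 7 of the 8. In 5 of the 8 every shPostn library lay below every shSCR library, against 17.0% of all genes tested. These included Mars and Rars, which were not called (Rars: log2 fold change −0.09, edgeR adjusted p = 0.382). Kars measured 212, 191 and 194 CPM in shPostn and 201, 208 and 204 CPM in shSCR, with overlapping libraries (log2 fold change −0.04, 95% interval −0.18 to 0.11, adjusted p = 0.766). Qars, the glutamine enzyme, measured 118, 114 and 110.05 CPM in shPostn and 106, 112 and 109 CPM in shSCR (log2 fold change 0.07, 95% interval −0.07 to 0.20, adjusted p = 0.488). The intervals of Kars, Qars, Rars (arginine, −0.22 to 0.05) and Dars (aspartate, −0.24 to 0.18) all lie above the Eprs estimate of −0.40. The interval of Eprs itself ran from −0.57 to −0.23 and overlapped that of Dars. The differences were not tested. Of the scaffold genes Aimp1, Aimp2 and Eef1e1, 0 were called by edgeR, DESeq2 or limma-voom, and 1 had an unadjusted p under 0.05. That was Aimp2, at 27.6, 28.2 and 24.3 CPM in shPostn and 29.2, 35.3 and 29.9 CPM in shSCR (log2 fold change −0.24, SE 0.10, adjusted p = 0.185).

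Further cytosolic enzymes did not pass the test, and 3 of them had an unadjusted p under 0.05. Mars, the methionine enzyme, measured 113, 112 and 105 CPM in shPostn and 127, 127 and 121 CPM in shSCR, without overlap (log2 fold change −0.18, SE 0.06, adjusted p = 0.0970). Its exons share 68 bases with Ddit3 on the opposite strand. Farsb measured 54.6, 47.2 and 41.9 CPM in shPostn and 58.7, 66.1 and 54.4 CPM in shSCR, and shPostn replicate 1 lay just inside the shSCR range (log2 fold change −0.32, SE 0.11, adjusted p = 0.126). Its partner subunit Farsa had a log2 fold change of 0.02 (SE 0.07, adjusted p = 0.868), and the difference between the subunits was not tested. Wars, the tryptophan enzyme, which interferon is known to induce, measured 77.9, 82.7 and 62.2 CPM in shPostn and 58.3, 63.2 and 64.3 CPM in shSCR. Here shPostn replicates 1 and 2 were high and replicate 3 was within the shSCR range (log2 fold change 0.26, SE 0.11, adjusted p = 0.177). Without shPostn replicate 3 Wars was called higher, at 0.38 on the log2 scale (adjusted p = 0.0113), and with chromosome medians taken out it was at −0.13 (adjusted p = 0.542). Vars, the valine enzyme, had a log2 fold change of −0.01 (95% interval −0.23 to 0.21, adjusted p = 0.958).

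The largest changes were on a chromosome that was lower as a whole in shPostn. Lars, which charges leucine (ENSMUSG00000024493; GRCm38 chromosome 18, 42202298 to 42262194, minus strand), measured 147, 128 and 120.04 CPM in shPostn, against 260.5, 269 and 262 CPM in shSCR. Its shPostn mean was 49.8% of the shSCR mean (log2 fold change −1.01, SE 0.08, adjusted p = 0.00274). Nars, the asparagine enzyme (ENSMUSG00000024587; chromosome 18, 64499647 to 64516652, minus strand), measured 367, 318 and 327 CPM in shPostn, against 581, 577 and 554 CPM in shSCR (log2 fold change −0.76, SE 0.08, adjusted p = 0.00384). Hars, the cytosolic histidine enzyme (ENSMUSG00000001380; chromosome 18, 36766528 to 36783205, minus strand), measured 72.0, 67.6 and 60.9 CPM in shPostn, against 94.2, 98.4 and 90.97 CPM in shSCR (log2 fold change −0.50, SE 0.08, adjusted p = 0.0107). In each of these genes every shPostn library lay below every shSCR library.

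Of the 343 tested genes of chromosome 18, 48.4% were called lower, and the median log2 fold change was −0.45 over its 281 genes above 4 CPM. Chromosome 12, which carries Wars, had a median of 0.39, and chromosome 4, which carries Yars, Pars2 and Rars2, one of −0.14. Hars and Hars2 lay close to the chromosome 18 median. Lars lay below the 5th percentile of that chromosome (−0.94), and Yars at that of chromosome 4 (−0.57). With chromosome medians taken out of the model, 8 of the 20 cytosolic genes and 0 of the 16 mitochondrial genes were called lower (1 mitochondrial gene had an unadjusted p under 0.05), against 2.81% of all genes tested. The log2 fold change of Lars was then −0.56 (adjusted p = 0.0163) and that of Nars −0.31 (adjusted p = 0.0620). Hars had −0.05 (adjusted p = 0.726) and Hars2 −0.02 (adjusted p = 0.911). Yars kept its call at −0.44 (adjusted p = 0.00930), and Aars was at −0.28 (adjusted p = 0.0604). Among genes outside chromosomes 12 and 18, 8 of 16 cytosolic and 0 of 15 mitochondrial genes were called lower by edgeR with no chromosome correction. On the single chromosomes other than these 2, between 1.46% (X) and 14.6% (chromosome 4) of all genes tested were called lower. Of those 15 mitochondrial genes, 0 had an unadjusted p under 0.05 and 0 were called by DESeq2 or limma-voom.

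**Figure D3:**
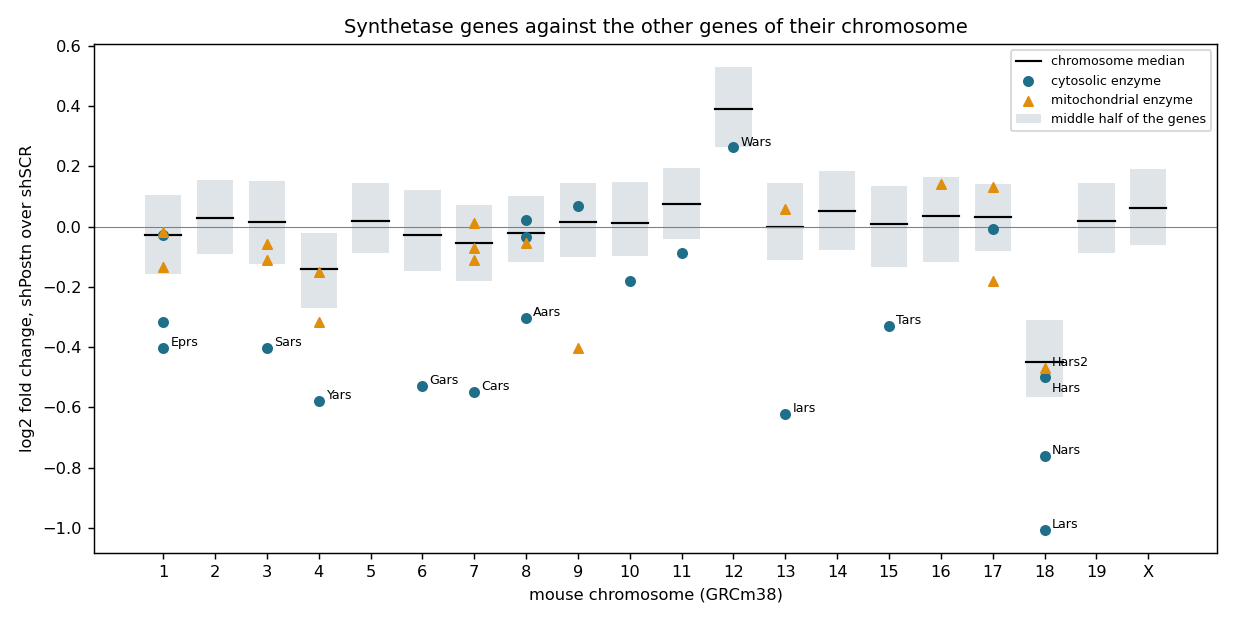
Log2 fold change of each synthetase gene (circles cytosolic, triangles mitochondrial) on its chromosome, with the middle 50% of the genes above 4 CPM of that chromosome as a bar and their median as a line; called genes and Wars are named. Hars and Hars2 sit at the chromosome 18 median of −0.45 and Lars and Nars below it, while Iars, Cars, Gars, Eprs, Sars, Tars and Aars lie below the bars of chromosomes whose medians are within 0.06 of 0.

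The single mitochondrial call was Hars2, the mitochondrial histidine enzyme (ENSMUSG00000019143; chromosome 18, 36783008 to 36792562, plus strand). It measured 22.9, 26.6 and 23.1 CPM in shPostn, against 33.9, 33.4 and 33.2 CPM in shSCR (log2 fold change −0.47, SE 0.08, adjusted p = 0.0158). Hars2 lies head to head with Hars, and their annotated exons share 195 bases on opposite strands. Lars2 measured 185, 152 and 143 CPM in shPostn and 195, 271 and 169 CPM in shSCR; shSCR replicate 2 was high, and the SE was the widest of the synthetases (log2 fold change −0.40, SE 0.19, adjusted p = 0.244). Pars2, the mitochondrial proline enzyme, measured 7.90, 8.69 and 11.5 CPM in shPostn and 11.1, 11.8 and 12.2 CPM in shSCR. Its shPostn replicate 3 fell within the shSCR range (log2 fold change −0.32, SE 0.16, adjusted p = 0.248), and without that library Pars2 was called lower, at −0.49 (adjusted p = 0.0317).

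The remaining 13 mitochondrial genes had log2 fold changes between −0.18 (Aars2) and 0.14 (Yars2). Aars2 measured 14.5, 15.97 and 14.7 CPM in shPostn and 17.2, 16.9 and 17.2 CPM in shSCR, without overlap (adjusted p = 0.194). The interval of Iars2 ran from −0.21 to 0.18 and that of Yars2 from −0.13 to 0.41. Both lie above the estimates of their cytosolic counterparts Iars and Yars. Intervals were wider for the mitochondrial genes, with a median SE of 0.11 against 0.07 for the cytosolic ones. Ears2 (glutamate, −0.32 to 0.35), Mars2 (−0.41 to 0.15) and Nars2 (asparagine, −0.35 to 0.21) could have changed as much as some called cytosolic genes. The same holds for Aars2, Cars2, Rars2, Sars2, Wars2, Lars2 and Pars2. Their lower limits ran from −0.33 (Cars2) to −0.87 (Lars2), below the estimate of −0.30 for Aars, which was called. Cars2 (cysteine), Fars2 (phenylalanine), Rars2 (arginine), Sars2 (serine), Tars2 (threonine), Vars2 (valine) and Wars2 (tryptophan) had estimates between −0.15 and 0.13. Annotated exons of Aars, Cars, Cars2, Ears2, Fars2, Farsb, Iars2, Nars2, Vars2 and Yars share between 30 and 2034 bases with a gene on the opposite strand, the most being those of Iars2 with Rab3gap2. The libraries were strand-specific, but the strand setting of the counting is not given in the sources used here.

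Within each library, the cytosolic enzyme was set against the mitochondrial enzyme of the same amino acid. Over 17 pairs of genes (Eprs and Fars2 each stand in 2 pairs) the cytosolic log2 fold change was the lower one in 15, with a median difference of −0.27. That median was −0.17 without shPostn replicate 2. The CPM ratio of cytosolic to mitochondrial gene was lower in every shPostn library than in every shSCR library for 9 pairs, higher in every one for 1 pair and overlapping for 7. These are descriptions with no test, and the same count was not made over other pairs of genes. Of single genes tested, 17.0% had every shPostn library below every shSCR library. The ratio of Iars to Iars2 was 2.32, 2.48 and 2.44 in shPostn, against 3.75, 3.60 and 3.66 in shSCR. The ratio of Yars to Yars2 was 7.84, 7.65 and 9.04 in shPostn, against 11.8, 13.7 and 14.9 in shSCR. The ratio of Nars to Nars2 was 34.4, 31.4 and 32.7 in shPostn, against 60.9, 54.2 and 45.6 in shSCR. In these 3 pairs every shPostn ratio lay below every shSCR ratio. The other pairs with a lower ratio and no overlap were those of Cars, Farsb, Lars, Sars, Tars and Vars, and the pair with a higher ratio was Wars with Wars2. Neither gene of the Vars pair was called (log2 fold change −0.01 for Vars and 0.13 for Vars2). Lars and Nars lie on chromosome 18 (median −0.45) and Wars on chromosome 12 (median 0.39). Their mitochondrial partners lie on chromosomes 9, 7 and 3. Hars and Hars2, which both fell, had overlapping ratios of 3.14, 2.54 and 2.63 in shPostn and 2.77, 2.94 and 2.74 in shSCR.

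**Figure D4:**
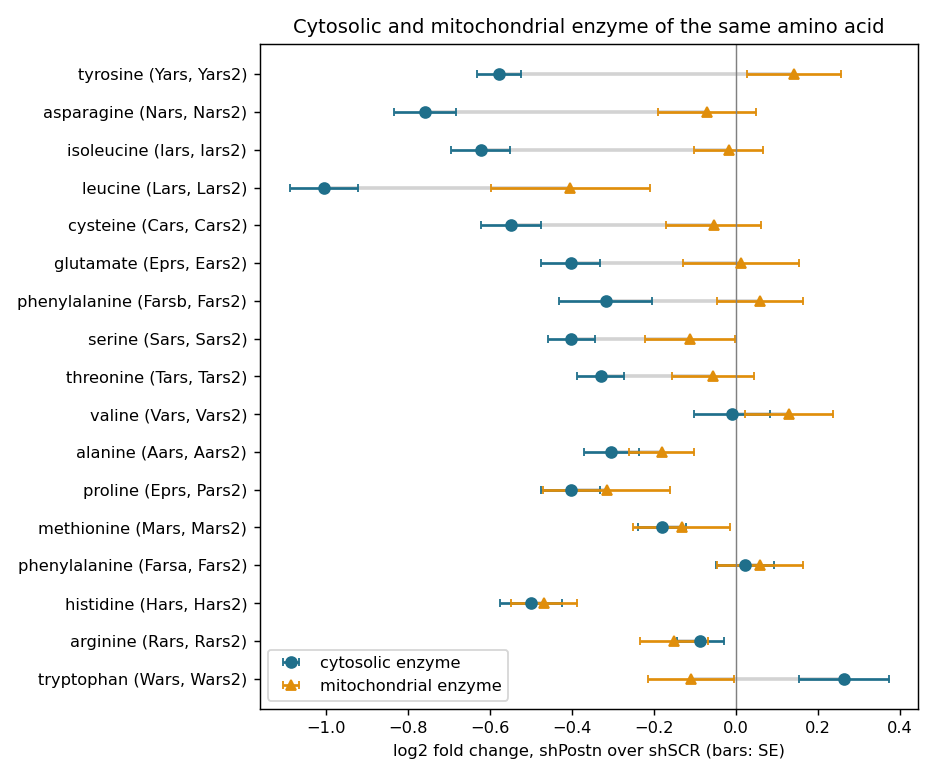
Log2 fold change with SE of the cytosolic (circles) and the mitochondrial (triangles) enzyme of each amino acid, ordered by the difference between them. The cytosolic point lies to the left by 0.60 or more for tyrosine, asparagine, isoleucine and leucine, and the order is turned for arginine and tryptophan.

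Genes of the amino acid response were measured beside the synthetases. Of 19 ATF4 targets for amino acid synthesis and import 13 fell (68.4%) and 0 rose, with a median log2 fold change of −0.68. Of all genes tested, 5.53% were called lower and 4.61% higher. The cystine importer Slc7a11 (−1.62, SE 0.10, adjusted p = 0.00114) and the glycine transporter Slc6a9 (−0.98, SE 0.15, adjusted p = 0.0119) changed the most among these targets. Slc7a11 measured 14.5, 12.8 and 11.8 CPM in shPostn, against 38.4, 41.97 and 40.05 CPM in shSCR. Of 12 regulators of the amino acid response Trib3, Nupr1, Atf5 and Ddit3 fell (33.3%) and 0 rose. Trib3, a pseudokinase that restrains ATF4, had the largest change (−1.63, SE 0.17, adjusted p = 0.00429), followed by the stress-induced Nupr1 (−0.81, SE 0.15, adjusted p = 0.0243). Ddit3, which encodes CHOP, measured 9.18, 8.997 and 10.5 CPM in shPostn, against 14.5, 12.6 and 13.96 CPM in shSCR (log2 fold change −0.51, SE 0.11, adjusted p = 0.0320). Several of these calls rested on all 6 libraries. With 1 left out the edgeR adjusted p reached 0.118 for Ddit3, 0.106 for Atf5, 0.0946 for Nupr1 and 0.0581 for Slc6a9. Each of these values came without a shSCR library, while Slc7a11 and Trib3 were called each time. Of the further called targets of the 19, Mthfd2, Aldh1l2, Pycr1 and Slc1a4 were also called each time. The others lost their call when 1 library was left out, in up to 4 of the 6 comparisons. Atf4 itself measured 476, 416 and 375 CPM in shPostn and 504, 497 and 524 CPM in shSCR, without overlap (log2 fold change −0.27, SE 0.09, adjusted p = 0.120). Its adjusted p was 0.0393 with DESeq2 and 0.0389 without shPostn replicate 1, but 0.140 with chromosome medians taken out. Atf4 did not pass in the other 5 comparisons that leave out 1 library, with an adjusted p of up to 0.297 (without shSCR replicate 3). ATF4 protein was not measured.

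Genes of tRNA delivery and of mitochondrial translation were tested in the same way. Of the 4 eEF1 elongation factor genes, which bring charged tRNA to the ribosome, 0 were called by edgeR, DESeq2 or limma-voom and 0 had an unadjusted p under 0.05. Eef1a1 averaged 10614 ± 871 CPM in shPostn and 11137 ± 152 CPM in shSCR (SD, n = 3 each; log2 fold change −0.07), and Eef1g had a log2 fold change of −0.05. Of 10 mitochondrial translation factors, led by Tufm (0.06) and Gfm1 (0.01), and of 4 genes that amidate or formylate charged mitochondrial tRNA, led by Gatc (−0.10) and Gatb (−0.17), 0 were likewise called by any of the 3 tools and 0 had an unadjusted p under 0.05. Among 6 genes that remove misplaced amino acids from tRNA or free tRNA from peptides, 5 were tested and 0 were called by edgeR or limma-voom; 3 had an unadjusted p under 0.05 and DESeq2 called 1. The alanyl-tRNA editing gene Aarsd1 was at −0.29 on the log2 scale (adjusted p = 0.0590), while Dtd2, a chromosome 12 gene, was at 0.54 (adjusted p = 0.0556). Without shPostn replicate 3 Aarsd1 was called lower (adjusted p = 0.0376) and Dtd2 higher (adjusted p = 0.00539). With chromosome medians taken out Aarsd1 was called lower (adjusted p = 0.0447), and Dtd2 was at 0.15 (adjusted p = 0.579). Tarsl2, a further threonine synthetase gene outside the 36, was not called by edgeR, DESeq2 or limma-voom (0.08, adjusted p = 0.739).

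The number of calls depended on single libraries. Cars, Iars, Lars, Nars and Yars passed in all 6 comparisons that leave out 1 library. With shSCR replicate 2 removed, 5 cytosolic genes were called, and with either of the other shSCR libraries removed, 6. Removing shPostn replicate 2 left 8 calls and removing shPostn replicate 1 left 11. Calls over all genes tested, in either direction, numbered 1300 with every library kept. They numbered 307, 429 and 404 without shSCR replicates 2, 1 and 3. Without shPostn replicate 2 they numbered 637, and without shPostn replicate 1 they numbered 943. Without shPostn replicate 3, the library rich in leukocyte transcripts, all 11 called genes were called again and Wars was called higher, while 9.2% of all genes tested were called lower. Gars and Sars did not pass when any 1 shSCR library was removed, with adjusted p of up to 0.0668 for Gars and 0.0515 for Sars. Aars, Eprs and Tars did not pass in those 3 comparisons nor without shPostn replicate 2, with adjusted p of up to 0.143 for Aars, 0.0917 for Eprs and 0.0828 for Tars. Hars did not pass without shSCR replicate 2 (adjusted p = 0.0595). Hars2 reached 0.0731 without shSCR replicate 2 and did not pass when any 1 shSCR library was removed. The log2 fold changes of the 11 cytosolic genes stayed between −1.09 and −0.26 in all 6 such comparisons.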

How the data were processed

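The 6 libraries were prepared from TRIzol RNA by BGI as strand-specific DNBSEQ libraries, per the labels' protocols. The authors deposited 1 table of estimated counts for Ensembl genes; Salmon and mm10 are named in the submitters' processing notes, without versions, annotation or strand setting. Values were whole numbers (0 not whole), so rounding changed none.

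Symbols, positions and exon lengths came from GENCODE M21 (GRCm38), and promoter windows from RefSeq (GRCm38.p6). edgeR 4.0.16 (limma 3.58.1, R 4.3.3) fitted all genes passing filterByExpr (minimum count 10) with TMM factors and a robust quasi-likelihood F-test, adjusted by Benjamini-Hochberg over 12819 genes. The SE is the log2 fold change over the square root of F. Chromosome medians used genes above 4 CPM. On simulated data of the same spread (12665 genes), the test recovered 75% of 2-fold changes and 39% of changes of 0.5 on the log2 scale, with 13 false calls of 151. The genes changed there were fewer than those called in the real data and had a minimum mean count. No simulated library or chromosome stood apart, so these rates need not hold for the synthetase genes.

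The members and lists were chosen with earlier results of these data known. All members are named; of other lists, the called members with the largest changes, at most 2 each way, or the 2 most abundant, plus Atf4, Ddit3, the scaffolds, Tarsl2 and Postn. Exosc6, Rab3gap2, Atf5, Mthfd2, Aldh1l2, Pycr1 and Slc1a4 were named after their values were seen. Alternatives were other normalisations and filters, DESeq2 1.42.0, limma-voom, a replicate block, chromosome medians and each library left out. The labels name no batch.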

Additional observations from a re-analysis of the deposited data

How the results depend on the processing

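All 36 synthetase genes kept their side of the threshold under relative log expression factors, upper quartile factors, library totals, no count filter, a filter of 1 CPM in 3 libraries, DESeq2 and limma-voom, each of which called 11 cytosolic genes and 1 mitochondrial gene. The number of called genes over the whole table was 1300, and it was 1973 with DESeq2, 654 with chromosome medians taken out, 735 with the replicate block, and between 307 and 2220 with a library left out. The replicate block called 8 cytosolic genes and 1 mitochondrial gene; Aars, Eprs and Tars were those not called (adjusted p = 0.0851, 0.0568 and 0.0516), as were Ddit3, Atf5, Nupr1 and Postn among the other named genes. The deviations of same-numbered libraries from their group means had correlations of −0.07, −0.13 and −0.44 over genes. With 3 libraries per group, of which shPostn replicate 3 stood apart, these values cannot decide whether the numbers pair the libraries. The labels do not say whether they do. With chromosome medians taken out, 0 mitochondrial genes were called. With a library left out, between 5 and 12 cytosolic and between 0 and 2 mitochondrial genes were called. The cause of these differences was not tested. The median difference within pairs of cytosolic and mitochondrial genes lay between −0.32 and −0.17 over the 15 alternatives, the median of the cytosolic genes between −0.39 and −0.29 and that of the mitochondrial genes between −0.15 and −0.03. Per kilobase of the longest transcript, the median shSCR level was 56.9 CPM for cytosolic and 5.40 CPM for mitochondrial genes. The median SE was 0.11 for mitochondrial and 0.07 for cytosolic genes; its relation to depth was not tested, and the abundant Lars2 had the widest SE.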
